A study of Mus musculus with 12 samples.

Results

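The expression of 40 cell cycle and proliferation genes was measured in P815-IFNG and P815-M tumors, with and without blue light. The genes are 18 that act in S phase and 22 that act in mitosis. They were chosen by their known roles, with earlier results of these data known, and are 40 of the 32288 rows counted in each library. All 40 were among the 18804 genes that passed the filter on low counts. P815 is a mouse mastocytoma line, a tumor of mast cells. The knock-in row mRuby3_luciferase was set beside them, because it is carried by the implanted cells and not by the mouse.

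A cell copies its DNA in S phase and divides it in mitosis, and most genes of these phases are expressed only in cycling cells. E2F transcription factors switch on the genes of DNA replication at the start of S phase, whereas the genes of mitosis are repressed until later through a short promoter element called CHR and then driven by factors that include FOXM1. In tumors these transcripts are used as signs of proliferation, since Mki67, which encodes the Ki-67 antigen, and its partners are low in resting cells.

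Tumors were grown under the skin of DBA/2 mice, young adults of both sexes, each with 1 tumor. P815-IFNG cells carry the light-sensitive transactivator GAVPO under an EF-1α promoter, a 5×UAS promoter that drives Ifng, Cxcl10 and the luciferase hGluc, and a plasmid for mRuby and firefly luciferase, whereas P815-M cells, the control, carry the last of these alone. Each line is 1 single-cell clone. In the light groups the tumors were illuminated for 12 h per day over 6 days, and in the dark groups they were not illuminated. Each of the 4 groups had 3 mice and 1 library per mouse.

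The third replicates of P815-IFNG light and P815-IFNG dark held 41473500 and 42338096 counts, while totals in the other 10 libraries ran from 2211234 to 2946792. These 2 deep libraries are shown apart. They also held 3.56% and 3.85% of their mitochondrial counts in mt-Nd6, a gene on the strand opposite to most mitochondrial genes, against 29.0% to 47.9% in the other 10. The GAVPO row had between 392.2 and 1820 CPM in P815-IFNG libraries and at most 1.64 CPM in P815-M libraries, so the lines went with their labels. CPM are counts relative to library totals scaled by TMM, a normalization against the bulk of the genes. No member had fewer than 10 counts in any library. Mast cell markers, the type of the tumor line, reached sums of 1754 to 2664 CPM, against 7985 and 10160 in the deep pair. In tumor pieces, fewer cycling cells and less RNA per cell cannot be told apart.

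The promoters show how the lists differ in sequence. RefSeq windows of GRCm38.p6, from 250 bases before to 50 bases after the start, were found for 16 S phase genes and 17 mitosis genes, and not for Mcm4, Gins2, Ccna2, Aurkb, Kif20a, Tpx2 and Foxm1. On both strands, the E2F letters TTTCCCGC, TTTCGCGC, TTTGGCGC or TTTGCCGC stood in 43.8% of the S phase windows, in 5.88% of the mitosis windows and in 2.32% of 27025 windows of all genes, counted with 1 window per gene. The CHR letters TTTGAA or TTCGAA stood in 76.5% of mitosis windows, 18.8% of S phase windows and 19.4% of all. CCAAT, the box of the factor NF-Y, stood in 88.2%, 62.5% and 37.9%. The window with the most E2F matches (Mcm6, with 3), 1 of the 3 with 2 (Mcm5, beside Mcm3 and Mcm7), that of Rrm2, the only member called, which held neither E2F nor CHR letters, the window with the most CHR matches (Top2a, with 4) and 1 of those with 2 (Cdk1, beside Mki67, Ccnb2, Bub1b and Cdc45) are given 5′ to 3′. They lie at chr1:128359656-128359955 (minus strand), chr8:75109259-75109558 (plus strand), chr12:24708004-24708303 (plus strand), chr11:99024140-99024439 (minus strand) and chr10:69352863-69353162 (minus strand). Capitals mark E2F letters in the S phase genes, where 2 matches on opposite strands can overlap, and CHR letters in the mitosis genes.
Mcm6: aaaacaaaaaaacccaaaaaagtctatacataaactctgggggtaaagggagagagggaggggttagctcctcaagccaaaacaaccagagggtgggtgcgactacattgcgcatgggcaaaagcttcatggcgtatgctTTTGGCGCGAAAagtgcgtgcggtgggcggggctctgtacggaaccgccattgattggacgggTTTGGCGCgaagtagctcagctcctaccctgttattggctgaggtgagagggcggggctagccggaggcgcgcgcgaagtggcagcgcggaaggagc
Mcm5: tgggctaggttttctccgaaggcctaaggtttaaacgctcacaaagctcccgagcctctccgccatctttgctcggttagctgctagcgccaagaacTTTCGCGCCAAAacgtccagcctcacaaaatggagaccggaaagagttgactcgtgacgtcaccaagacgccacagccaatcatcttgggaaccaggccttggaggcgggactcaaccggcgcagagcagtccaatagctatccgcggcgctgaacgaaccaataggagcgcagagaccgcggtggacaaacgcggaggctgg
Rrm2: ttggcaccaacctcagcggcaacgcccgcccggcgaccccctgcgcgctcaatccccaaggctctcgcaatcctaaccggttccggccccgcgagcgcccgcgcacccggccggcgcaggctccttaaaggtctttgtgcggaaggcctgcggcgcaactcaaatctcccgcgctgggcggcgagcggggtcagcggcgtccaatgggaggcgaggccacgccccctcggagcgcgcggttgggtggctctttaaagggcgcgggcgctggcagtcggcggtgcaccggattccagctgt
Top2a: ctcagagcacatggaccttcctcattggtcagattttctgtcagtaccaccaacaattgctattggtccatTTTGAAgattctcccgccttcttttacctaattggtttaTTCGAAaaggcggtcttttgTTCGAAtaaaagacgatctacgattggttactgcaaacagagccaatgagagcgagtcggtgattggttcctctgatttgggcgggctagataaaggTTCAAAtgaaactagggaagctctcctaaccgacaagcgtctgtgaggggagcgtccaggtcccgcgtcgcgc
Cdk1: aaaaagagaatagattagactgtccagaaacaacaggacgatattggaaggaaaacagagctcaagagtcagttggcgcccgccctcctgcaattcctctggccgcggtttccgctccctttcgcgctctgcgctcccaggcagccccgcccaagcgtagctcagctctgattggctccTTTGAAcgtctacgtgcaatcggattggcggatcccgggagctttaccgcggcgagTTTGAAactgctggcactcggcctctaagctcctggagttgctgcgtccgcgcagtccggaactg
A match is a description of the letters and does not show that a factor was bound in these tumors.

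The effect of light was first compared within P815-IFNG tumors. Of the 40 members, 36 had a lower fitted level in light than in dark, against 53.3% of all genes tested. The median log2 fold change was -0.38 over S phase genes and -0.45 over mitosis genes, and -0.03 over all genes. A gene was called where its p in edgeR's quasi-likelihood test, adjusted by Benjamini-Hochberg, was 0.05 or less and its log2 fold change was 1 or more in size. No member was called, where 0.0106% of all genes were. At an unadjusted p under 0.05 there were 17 members, all lower, against 4.20% of all genes that were lower at that level. In 15 members the light libraries lay below the dark ones without overlap, in the 4 libraries of usual depth and again in the deep pair, and in 0 the reverse. Of 9640 genes at least as abundant as the lowest member, 15.3% were lower in this way and 8.95% higher. Between the 2 deep libraries, which set 1 library against 1, all 18 S phase genes and 20 of 22 mitosis genes were lower in light (Bub1 and Cenpf were not). Of 9640 genes in that range of level, 64.9% were lower. Median log2 ratios were -0.52 for S phase and -0.41 for mitosis genes, against -0.13 over these 9640 genes.

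Mcm2 to Mcm7 encode the replicative helicase, and Mcm2 and Mcm5 were followed in each library. Mcm2 had 69.0 and 78.3 CPM in the light libraries of usual depth and 128 in the deep one, against 102, 86.7 and 204 in the dark. Mcm2 was lower in light at either depth, with a log2 fold change of -0.46 (SE 0.16, adjusted p = 0.401). Mcm5 had 38.9, 71.5 and 112 CPM in light against 74.5, 63.9 and 170.3 in dark, and the groups overlapped (log2 fold change -0.42, SE 0.22). All 6 helicase genes were lower in light, from -0.64 for Mcm4 to -0.17 for Mcm7. In the libraries of usual depth, the values of every member are uncertain as to the strand counted, for the reason given further on. Mcm7 is uncertain in addition, since its exons overlap a gene of the other strand. Pcna, the sliding clamp, had 78.6, 87.5 and 175 CPM in light against 95.0, 84.7 and 197 in dark, values that overlapped, with a log2 fold change of -0.12 (SE 0.16).

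Rrm2 encodes the regulated subunit of ribonucleotide reductase, which makes deoxynucleotides. It had 27.3, 29.7 and 104 CPM in light against 46.2, 43.5 and 153 in dark. Rrm2 was lower in light at either depth, with a log2 fold change of -0.61 (SE 0.18, adjusted p = 0.289). Ccne1, the cyclin of entry into S phase, had the largest fold change of the S phase list, at 6.42, 5.83 and 16.5 CPM in light against 14.6, 9.37 and 28.0 in dark. Its groups did not overlap at either depth, and its log2 fold change was -0.86 (SE 0.31, adjusted p = 0.449). E2f1, the transcription factor, had 20.4, 27.2 and 29.8 CPM in light against 29.5, 26.1 and 34.1 in dark, an overlap with a log2 fold change of -0.20 (SE 0.20).

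Of the mitotic cyclins and kinases, 6 of 7 were lower in light, and 5 had an unadjusted p under 0.05. Ccnb1, cyclin B1, had 13.6, 18.5 and 104 CPM in light against 34.1, 27.8 and 157 in dark. Its groups did not overlap at either depth, and its log2 fold change of -0.78 (SE 0.21, adjusted p = 0.188) had the smallest adjusted p of the 40. Its partner kinase Cdk1 had 8.82, 24.3 and 64.2 CPM in light against 24.5, 20.1 and 81.4 in dark, which overlapped. Aurkb, the kinase of the chromosomal passenger complex, had 24.9, 51.0 and 34.7 CPM in light against 57.4, 41.2 and 67.2 in dark. These overlapped in the 4 libraries of usual depth. The log2 fold changes were -0.39 (SE 0.26) for Cdk1 and -0.59 (SE 0.25) for Aurkb.

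Top2a, the topoisomerase that untangles DNA before division, had 70.6, 128 and 643 CPM in light against 167, 144 and 705 in dark. Top2a was lower in light at either depth, with a log2 fold change of -0.46 (SE 0.21, adjusted p = 0.590). Mki67 did not share this difference, at 106, 136 and 603 CPM in light against 132, 119 and 651 in dark (log2 fold change -0.06, SE 0.16). Foxm1 had 28.9, 54.0 and 58.3 CPM in light against 57.4, 53.9 and 85.5 in dark, which overlapped by a narrow margin (log2 fold change -0.47, SE 0.22). Among genes of the spindle, kinetochore and midzone the median was -0.15, and 1 of 8, Birc5, had an unadjusted p under 0.05.

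The size of these differences in P815-IFNG tumors changed with the first and second light replicates, in opposite directions. Without the first, the median log2 fold changes were -0.22 for S phase and -0.24 for mitosis genes, and 31 of 40 members were lower. Without the second they were -0.58 and -0.62, 38 were lower, and Cdc20, the activator of the anaphase-promoting complex, was called. In that fit 52 of all 18740 genes were called, against 2 of 18804 in the main fit.

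**Figure D1:**
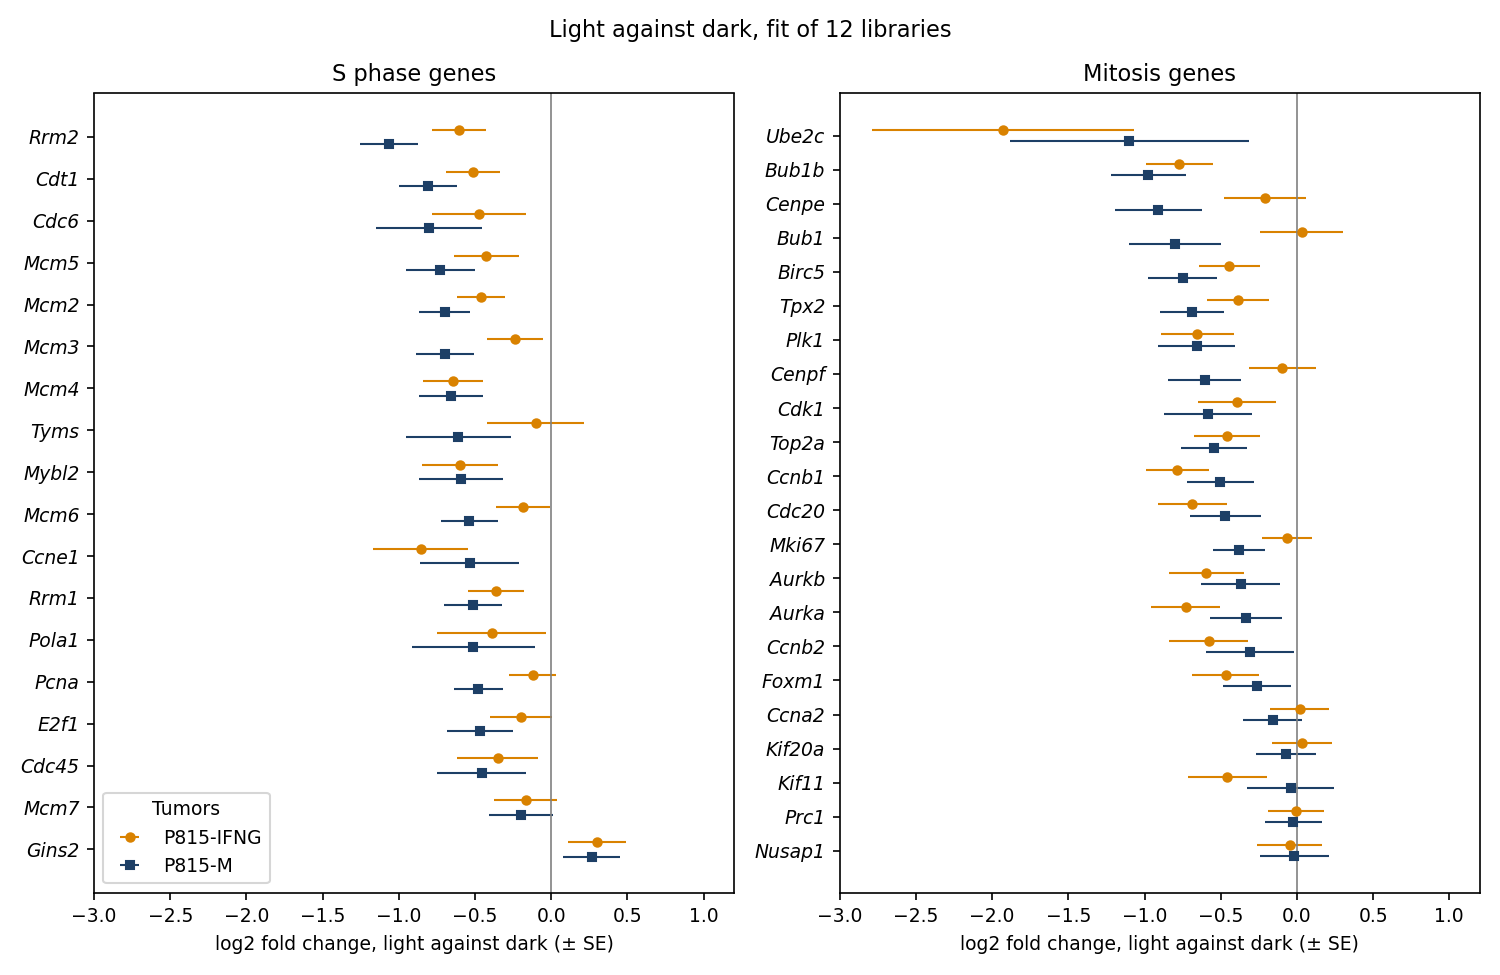
Log2 fold change of each member, light against dark (x axis, with the SE of the fit), for S phase genes (left) and mitosis genes (right), ordered by the value in P815-M tumors. Circles are P815-IFNG tumors, of which 36 of 40 lie below 0, and squares are P815-M tumors, of which 39 of 40 do; the light-dark comparisons use different tumors.

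In P815-M tumors, the control, 39 of the 40 members had a lower fitted level in light than in dark, against 46.6% of all genes. The exception was Gins2, another uncertain member. The median log2 fold change was -0.57 over S phase genes and -0.49 over mitosis genes, and 0.01 over all genes. Rrm2 was called, which is 1 of 40 members, where 1.03% of all genes were called, and 0.0851% were called as lower. With the adjusted p alone, Cdt1 and Mcm2 also passed, and 0.202% of all genes were lower at that level. At an unadjusted p under 0.05 there were 22 members, all lower, against 5.01% of all genes. In 24 members, 14 of S phase and 10 of mitosis, each light library lay below each dark one, and in 0 the reverse. Of the 9640 genes at least as abundant as the lowest member, 12.6% were lower in this way and 11.0% higher. No library of this comparison was deep. The mt-Nd6 share also differed between these groups, at 47.9%, 43.7% and 41.5% in light against 29.0%, 36.7% and 31.5% in dark, and in the P815-IFNG libraries of usual depth it was 40.5% and 43.6% against 34.4% and 32.2%. Each light library lay above each dark one of usual depth in both lines, and the part of this in the members' values was not tested.

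Rrm2 had 33.6, 21.97 and 23.2 CPM in light and 57.6, 51.5 and 55.0 CPM in dark. Like all P815-M values, these are uncertain as to the strand counted, for the reason given further on. Each light library lay far below each dark one, with a log2 fold change of -1.06 (SE 0.19, adjusted p = 0.00765, edgeR's quasi-likelihood test; exact permutation test of the CPM, two-sided p = 0.1, the smallest that 3 mice against 3 allow). It was -0.95 and no longer called without the second light replicate, and it was not called without the third light replicate either. Rrm1, the other subunit, and Tyms, thymidylate synthase, were lower by 0.51 and 0.61 on the log2 scale, with adjusted p values of 0.248 and 0.492 from the same edgeR test.

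The 6 helicase genes and 3 of the 4 genes that license and fire origins also had negative log2 fold changes, Gins2 being the exception. Cdt1, which loads the helicase, had 32.6, 27.2 and 37.5 CPM in light and 60.7, 51.0 and 58.7 in dark, and Mcm2 had 56.3, 60.2 and 54.0 CPM against 101, 83.7 and 92.0. Neither gene overlapped between light and dark, and log2 fold changes were -0.81 for Cdt1 (SE 0.19, adjusted p = 0.0403) and -0.70 for Mcm2 (SE 0.17, adjusted p = 0.0421). Mcm5 had 55.8, 34.9 and 45.9 CPM in light and 88.8, 76.5 and 60.8 in dark. These did not overlap either, with a log2 fold change of -0.73 (SE 0.23, adjusted p = 0.137). Pcna, at 72.3, 63.0 and 79.8 CPM against 105, 96.7 and 98.5, and E2f1, at 22.2, 30.1 and 27.2 against 31.9, 44.2 and 34.5, were also separated, with log2 fold changes of -0.48 (SE 0.16) and -0.47 (SE 0.22). Ccne1 had 7.75, 13.9 and 14.3 CPM in light and 23.7, 13 and 15.2 in dark, and its groups overlapped (log2 fold change -0.54, SE 0.32).

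Of the mitosis genes, all 22 had negative log2 fold changes and 10 had an unadjusted p under 0.05. Mki67 had 93.0, 86.4 and 95.4 CPM in light and 104, 137 and 118 in dark, and Ccnb1 had 25.8, 26.3 and 16.1 against 30.4, 32.3 and 33.7. Both were lower in each light library, with log2 fold changes of -0.38 (SE 0.17) and -0.50 (SE 0.22). Cdk1 had 15.5, 17.7 and 13.4 CPM in light and 23.0, 27.6 and 19.7 in dark, again without overlap (log2 fold change -0.59, SE 0.29). Bub1b, the spindle checkpoint kinase, came nearest to the threshold of this list, with a log2 fold change of -0.97 (SE 0.25, adjusted p = 0.0566).

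Top2a, Aurkb and Foxm1 overlapped between light and dark in P815-M tumors, whereas Cenpe did not. Top2a had 123, 104 and 106 CPM in light and 175, 121 and 188 in dark, so that the highest light library exceeded the lowest dark one (log2 fold change -0.54, SE 0.22). Aurkb had 57.4, 34.9 and 34.3 CPM in light and 48.3, 56.7 and 58.3 in dark (log2 fold change -0.37, SE 0.26). Foxm1 had 53.7, 61.6 and 55.7 CPM in light and 66.6, 49.4 and 88.7 in dark (log2 fold change -0.26, SE 0.22). Cenpe, the kinetochore motor, had 22.7, 14.3 and 10.7 CPM in light and 33.5, 29.7 and 25.9 in dark, which were separated (log2 fold change -0.91, SE 0.29, adjusted p = 0.140).

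Summed over the 15 S phase genes without an overlapping gene on the other strand, P815-M tumors had 522 ± 40.03 CPM in light and 816 ± 60.4 in dark (SD, n = 3). Summed over the 16 such mitosis genes they had 565 ± 66.6 and 796 ± 57.7. The light and dark libraries did not overlap in either sum. In the 4 P815-IFNG libraries of usual depth the S phase sums were 508 and 691 CPM in light against 694 and 770.5 in dark, and the mitosis sums 417 and 658 against 674 and 766.5. The deep libraries had higher sums, 1461 against 2029 and 2346 against 2805.

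**Figure D2:**
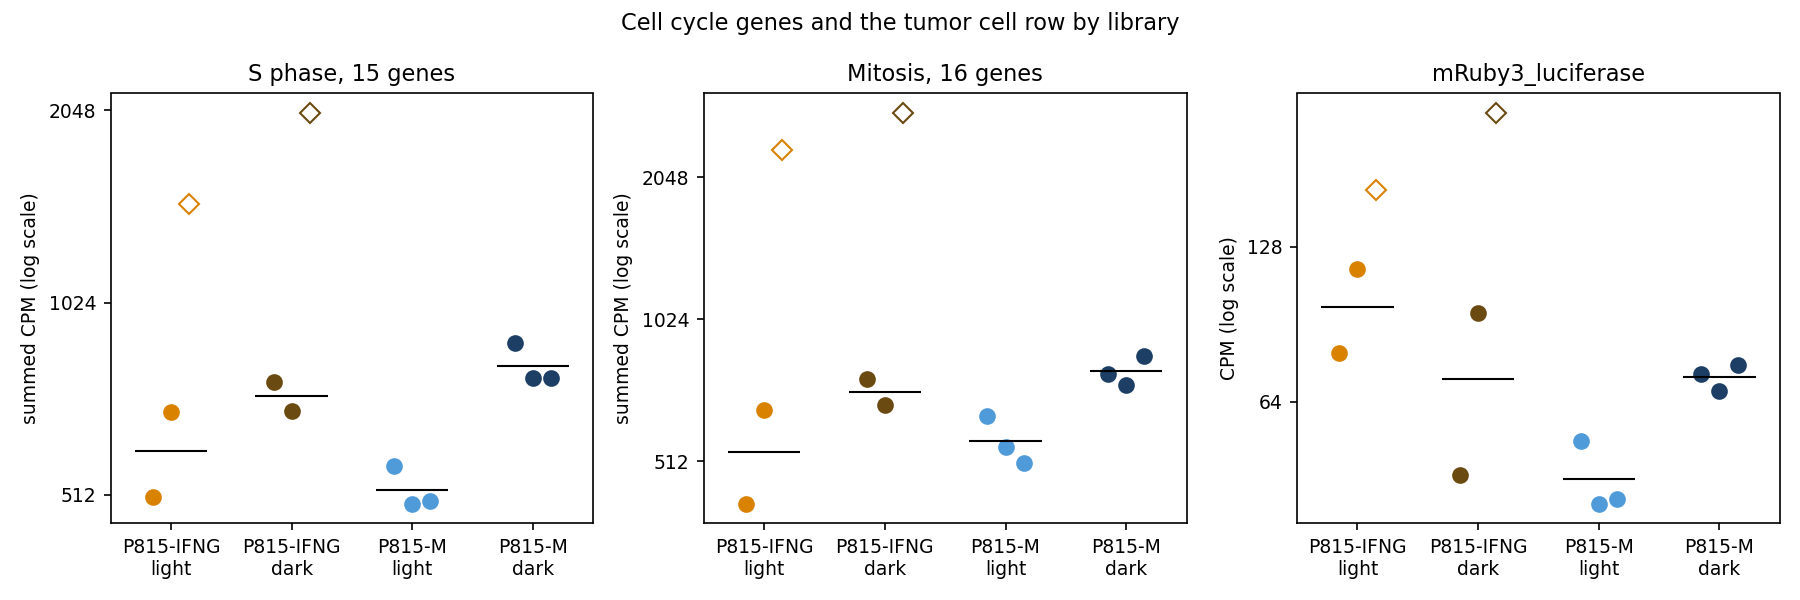
Summed CPM of 15 S phase genes and 16 mitosis genes without an overlapping gene on the other strand, and CPM of mRuby3_luciferase (log scale), with 1 point per library in each of the 4 groups. Filled circles are libraries of 2211234 to 2946792 counts and open diamonds the 2 deep ones, and lines are the means of the circles; in P815-M tumors the light points lie below the dark points in each panel.

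The difference between the effects of light in the 2 lines was tested itself. No member passed, and none had an unadjusted p under 0.05, where 0.0160% of all genes were called and 5.73% had such a p (edgeR's quasi-likelihood test; DESeq2 also called 0 members). Taken as the effect in P815-IFNG minus that in P815-M tumors, the difference was positive for 16 of 18 S phase genes, with a median of 0.25, and for 13 of 22 mitosis genes, with a median of 0.05, while 53.2% of all genes had a negative one. Bub1, a spindle checkpoint kinase, had the largest difference, 0.83 (SE 0.41, adjusted p = 0.862). It had 12.8, 12.2 and 79.0 CPM in light and 12.1, 13.4 and 75.6 in dark in P815-IFNG tumors, and 17.6, 8.12 and 8.92 against 23.7, 12.0 and 23.4 in P815-M tumors. Rrm2 differed by 0.46 with an SE of 0.26, and Pcna by 0.36 with an SE of 0.22.

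Between the lines, in the light groups 24 of 40 had a lower fitted level in P815-IFNG tumors and 16 a higher one, against 48.8% of all genes that were lower, with medians of 0.07 for S phase and -0.26 for mitosis genes. No member was called, where 0.436% of all genes were. Ccne1 had 7.75, 13.9 and 14.3 CPM in P815-M light against 6.42, 5.83 and, in the deep library, 16.5 in P815-IFNG light, a log2 fold change of -0.90 (SE 0.37, adjusted p = 0.348). In the dark groups 34 of 40 were lower in P815-IFNG tumors, against 45.0% of all genes, with medians of -0.15 and -0.20, and again none was called, where 1.54% of all genes were. Cenpe had the smallest adjusted p of the members in the dark, with 19.2 and 13.1 CPM in P815-IFNG libraries of usual depth, 120.1 in the deep one, and 33.5, 29.7 and 25.9 in P815-M libraries (log2 fold change -0.94, SE 0.29, adjusted p = 0.0868). These comparisons depend on the term for the deep libraries, which are all of P815-IFNG. Without it the medians were 0.69 and 0.80 in light and 0.40 and 0.58 in dark.

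The row mRuby3_luciferase was used as a measure of tumor cell RNA within each line. That use is uncertain in the libraries of usual depth, for the strand reason given further on. It had 53.7, 40.6 and 41.5 CPM in P815-M light and 72.4, 67.1 and 75.5 in P815-M dark, from 85 to 186 counts. No light library reached the lowest dark one (p = 0.1 in a two-sided exact permutation test; log2 fold change -0.66, SE 0.26, adjusted p = 0.265). In P815-IFNG tumors it had 79.8, 116 and, in the deep library, 165 CPM in light and 46.2, 95.4 and 233 in dark. These overlapped, with a log2 fold change of 0.13 (SE 0.24) that was -0.20 without the first dark replicate and 0.46 without the third light replicate.

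Each list was then set against this row. In P815-M tumors the S phase sum per mRuby3_luciferase was 11.6 ± 0.917 in light and 11.4 ± 0.967 in dark (SD, n = 3), which overlapped, and the mitosis sum was 12.6 ± 0.879 and 11.1 ± 0.260, where the lowest light library lay above the highest dark one. In the fit scaled to this row, 12 of 18 S phase genes and 16 of 22 mitosis genes were higher in light, with medians of 0.11 and 0.18, while the median of all genes was 0.69, so the sign of the light effect on most members in P815-M turned with the scaling. The scaling shifts all genes alike. Rrm2 was no longer called. In P815-IFNG tumors the same scaling gave medians of -0.65 and -0.70, with 17 of 18 and 22 of 22 genes lower and a median of all genes of -0.25. The ratios there were 6.37 and 5.95 in light and 16.7 and 7.28 in dark for S phase in the libraries of usual depth, and 8.86 against 8.70 in the deep pair. For mitosis they were 5.22 and 5.66 against 16.6 and 7.06, and 14.2 against 12.0 in the deep pair, where the order was the reverse.

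**Figure D3:**
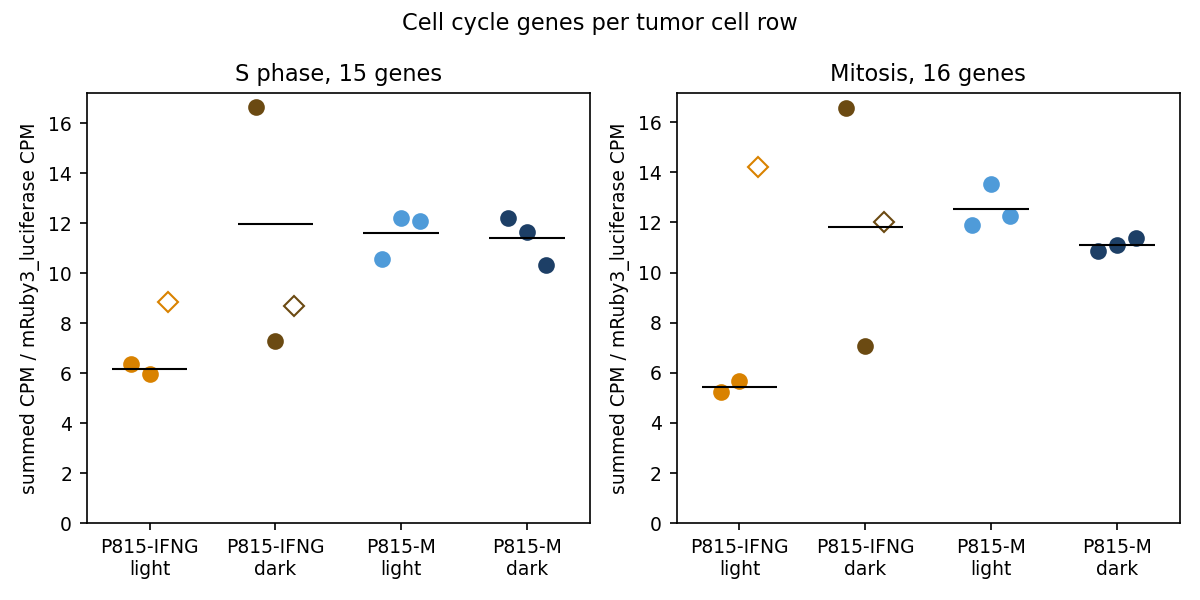
Summed CPM of 15 S phase genes and of 16 mitosis genes divided by the CPM of mRuby3_luciferase, 1 point per library, with open diamonds for the 2 deep libraries and lines at the means of the others. In P815-M tumors the light and dark points lie between 10.3 and 13.6, whereas the P815-IFNG dark points spread from 7.06 to 16.7.

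The balance of S phase to mitosis was lowest in the deep libraries. The ratio of the summed CPM was between 0.890 and 0.988 in P815-M light and between 0.909 and 1.13 in P815-M dark, which overlapped. It was 1.05 and 1.22 in P815-IFNG light and 1.01 and 1.03 in P815-IFNG dark in the libraries of usual depth, and 0.623 and 0.723 in the deep ones.

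The same split by depth ran through single members. Over the 31 members whose exons do not overlap a gene of the other strand by at least 100 bases, the log2 ratio of the mean CPM of the 4 other P815-IFNG libraries to that of the deep pair had a median of -1.79, against -0.05 over all genes. It was -1.25 for S phase and -2.19 for mitosis genes, from -2.98 for Cenpe to -0.09 for Cdc20. Over the other 9 members it had a median of -0.64. Which strand was counted was not tested in any library. If the 10 libraries were counted on the strand opposite to the genes, the values of the 31 members there, all P815-M values and Rrm2 among them, would be reads from the opposite strand. This would hold for mRuby3_luciferase in these libraries as well, and for the ratios and the scaling that use it. The 9 members with an overlap are uncertain in addition, since such reads could come from the partner gene. Mcm7 overlaps Ap4m1, Cdc45 overlaps Ufd1, Gins2 overlaps Gse1, Ccna2 overlaps Exosc9, Plk1 overlaps Gm44985, Kif20a overlaps Cdc23, Ube2c overlaps Tnnc2, Nusap1 overlaps Oip5 and Prc1 overlaps Rccd1. Gins2, of the GINS complex of the helicase, had between 541 and 947 CPM in the 10 libraries and 66.1 and 77.3 in the deep ones. Per kilobase of exon, Gins2 ranked 1 of 40 in the 10 libraries and 24 in the deep pair. In the deep pair the highest levels per kilobase were 80.7 CPM for Mcm3, 77.5 for Pcna, 74.8 for Top2a and 62.3 for Mki67, and the lowest 4.42 for Cdc6.

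**Figure D4:**
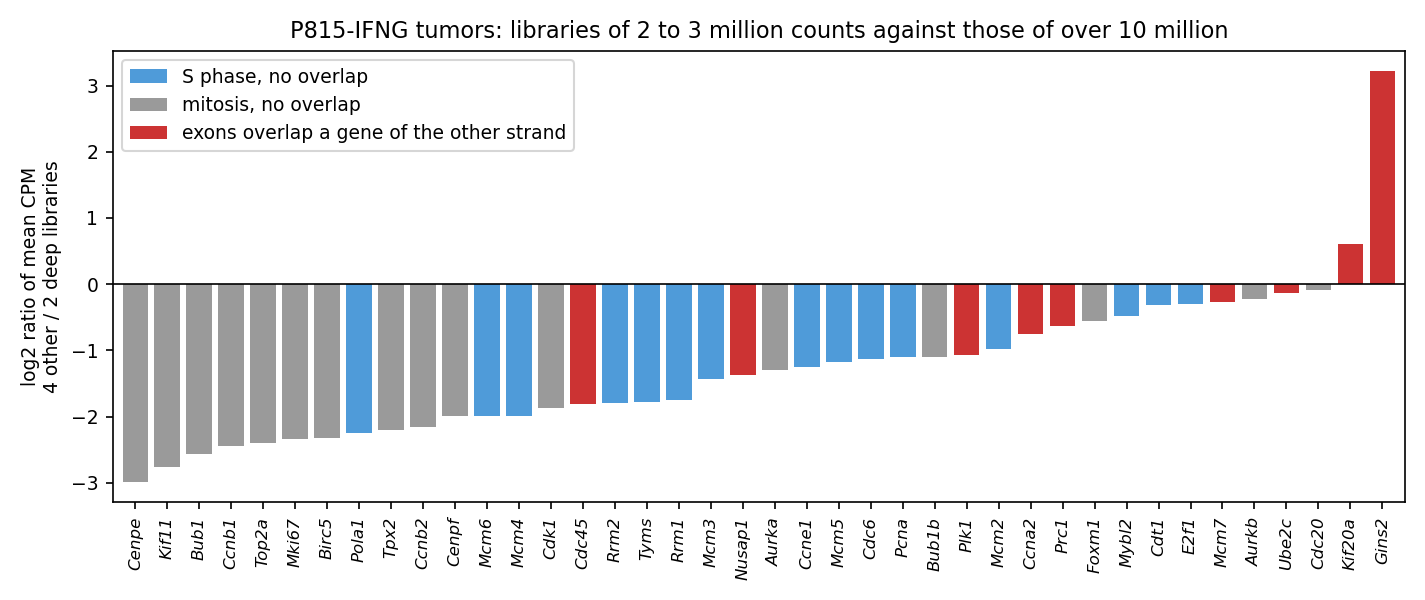
Log2 ratio of mean CPM in the 4 P815-IFNG libraries of usual depth to that in the 2 deep ones (y axis), 1 bar per member in order of the ratio. Blue bars are S phase genes, grey bars mitosis genes, and red bars the 9 members that overlap a gene of the other strand, of which Gins2 (3.22) and Kif20a (0.60) alone lie above 0.

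Ube2c, the ubiquitin-conjugating enzyme of the anaphase-promoting complex, had the largest fitted log2 fold changes and the widest spread. It had 24.1 and 36.0 CPM in P815-IFNG light, 328 and 83.0 in P815-IFNG dark, and 108 and 151 in the deep light and dark libraries. In P815-M tumors it had 51.7, 104 and 342 CPM in light and 63.1, 944 and 70.2 in dark. The spread within a group was as large as the differences between groups, and log2 fold changes were -1.93 (SE 0.86) in P815-IFNG and -1.10 (SE 0.78) in P815-M tumors. The P815-M value was 1.32 without the second dark replicate and -2.20 without the third light replicate. The libraries at 328, 342 and 944 CPM were also the highest in Tnnc2, a troponin of fast skeletal muscle whose exons overlap those of Ube2c by 592 bases, at 23.9, 17.4 and 42.1 CPM. The same 3 libraries had the highest sums of 6 skeletal muscle markers, 381, 267 and 423 CPM, against 89.1 to 215 in the other 9. The part of these reads in the value of Ube2c was not tested.

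**Figure D5:**
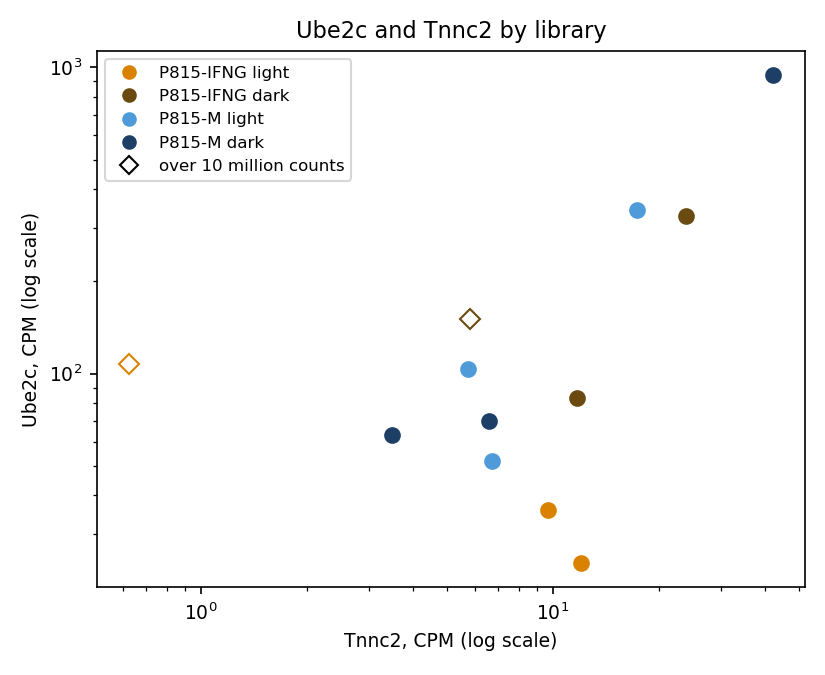
CPM of Ube2c (y axis) against CPM of Tnnc2 (x axis), both on log scales, with 1 point per library coloured by group and open diamonds for the 2 deep libraries. The 3 libraries with the highest Tnnc2, at 17.4, 23.9 and 42.1 CPM, are the 3 with the highest Ube2c.

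Further genes of the cycle were compared from lists of general knowledge. Of 20 other mitosis genes, 20 had a lower fitted level in light in P815-IFNG tumors (median -0.39) and 19 in P815-M tumors (median -0.47), and of 20 other S phase genes 16 and 15 did, with medians of -0.37 and -0.22. Of all genes tested, 53.3% were lower in P815-IFNG and 46.6% in P815-M tumors. In P815-M tumors 1 of the 20 other mitosis genes was called as lower, against 0.0851% of all genes. This was Cdca3, which acts at entry into mitosis, with 3.10, 5.25 and 4.46 CPM in light and 17.1, 10.9 and 17.2 in dark. The light values rest on only 6, 11 and 10 counts. In the deep P815-IFNG libraries Cdca3 had 66.6 CPM in light and 82.35 in dark, so its level in the other libraries is uncertain. Its light libraries lay far below the dark ones (log2 fold change -1.82, SE 0.36, adjusted p = 0.0143). In P815-IFNG tumors its log2 fold change was -0.01 (SE 0.28), and the difference between the lines had an adjusted p of 0.358 from edgeR's quasi-likelihood test.

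Of 14 inhibitors of the cycle, 9 were higher and 5 lower in P815-M light (median 0.12), where 46.6% of all genes were lower, and 5 were higher and 9 lower in P815-IFNG light (median -0.19), where 53.3% were. In P815-M tumors 1 of the 14 was called, against 1.03% of all genes, and this was Rb1, the retinoblastoma protein that restrains E2F factors. It had 56.8, 57.3 and 59.3 CPM in P815-M light and 27.6, 13.5 and 16.01 in P815-M dark, without overlap (log2 fold change 1.59, SE 0.32, adjusted p = 0.0177). In P815-IFNG tumors Rb1 had 27.7, 33.1 and 10.2 CPM in light and 82.2, 49.5 and 6.77 in dark, so the order was the reverse in the libraries of usual depth, and its difference between the lines reached an adjusted p of 0.202 in that edgeR test. Beyond the strand counted, Rb1 is uncertain since its exons overlap those of Rcbtb2 by 488 bases, and its deep libraries were low. In the dark 2 of the 14 were called between the lines, against 1.54% of all genes. Rb1 was one of them (log2 fold change 1.51, adjusted p = 0.0172 in that edgeR test). The other was Cdkn1c, the inhibitor p57, at 4.96, 12.1 and 2.21 CPM in P815-IFNG and 0 to 1.23 in P815-M tumors. These values are near that of 3 counts, and Cdkn1c too overlaps a gene of the other strand.

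Genes of G1 were compared last. Of 9 G1 cyclins, kinases and Myc, none was called in any of the 5 comparisons. In P815-M tumors log2 fold changes between light and dark were -0.32 for Ccnd2, -0.09 for Ccnd1, -0.06 for Ccnd3 and -0.01 for Myc, and those of the inhibitors Cdkn1a (p21) and Cdkn1b (p27) were 0.11 and -0.54. In P815-IFNG tumors they were -0.14, -0.24, -0.06 and -0.27 for the first 4 genes, and -0.13 and 0.20 for the inhibitors. Cdkn1a, Ccnd1, Ccnd2 and Ccnd3 overlap genes of the other strand and are uncertain beyond the strand counted. None of these had an unadjusted p under 0.05 except Cdkn1b in P815-M, at 0.0211 (adjusted p = 0.286 from the same edgeR test).

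Markers of other cells did not all move the same way in P815-M tumors. All 7 macrophage markers had a higher fitted level in P815-M light than dark, with a median log2 fold change of 0.83. Of these 7, 1 was called, against 1.03% of all genes. Their sums were 1015, 1169 and 1104 CPM in light against 831, 672 and 752 in dark. Fibroblast markers were higher in 5 of 6 (median 0.38) and T cell markers in 4 of 7 (median 0.56). Endothelial markers were lower in 4 of 5 (median -0.75) and skeletal muscle markers in 4 of 6 (median -0.46). Adipocyte markers were lower in 3 of 4 (median -0.57) and B cell markers in 2 of 3 (median -0.76). None of these was called. The 9 mast cell markers tested had a median of -0.14, with 4 higher and 5 lower. Their sums, over 10 markers, were 1963, 1973 and 1954 CPM in P815-M light against 2664, 2099 and 2508 in P815-M dark, so the light libraries lay below the dark ones, as they did for mRuby3_luciferase and both cell cycle sums. In P815-IFNG tumors macrophage markers had a median of -0.06, T cell markers of -0.18 and B cell markers of 0.36, with none called. Of the skeletal muscle markers, 6 of 6 were lower in light, with a median of -4.40. Here 1 of the 6 was called, against 0.0106% of all genes. Endothelial markers were lower in 5 of 5 (median -2.29), adipocyte markers in 4 of 4 (median -1.16), fibroblast markers in 5 of 6 (median -0.62) and mast cell markers in 7 of 9 (median -0.26), with none of these called. The mast cell sums did not follow their median. They overlapped at usual depth, at 1916 and 1896 CPM in light against 1904 and 1754 in dark. In the deep pair they were higher in light, at 10160 against 7985. In the libraries of usual depth the endothelial sums were 34.9 and 37.9 CPM in light against 115 and 144 in dark. Adipocyte sums were 14.4 and 8.75 CPM in light against 98.4 and 132.5 in dark at usual depth. In the deep pair their order was the reverse, at 75.7 in light against 12.2 in dark. Skeletal muscle sums were 117, 115 and, in the deep library, 141 CPM in light against 381, 134 and 215 in dark. These sums differed far less than the median of -4.40 over the single muscle markers. The part of these cells in the levels of the cell cycle genes was not tested.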

How the data were processed

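RNA-seq of 12 tumors, 3 per group, was analysed. The deposited values are raw counts of each gene, produced by the authors with STAR 2.7.9a and HTSeq 0.13.5, as named in the submitters' processing notes, with fastp before them and a genome of mm10 plus the knock-in sequences. The library kit keeps strand, and HTSeq was run with default parameters. The authors' removal of mitochondrial genes and ComBat-seq adjustment are not in these values.

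The 40 members and the other lists were chosen from general knowledge, with earlier results of these data known. Rows of 13 mitochondrial genes, and of genes with fewer than 10 counts in all, were left out. The remaining 18804 genes were compared with edgeR 4.0.16 (R 4.3.3), with TMM normalization, 1 mean per group, 1 term for the 2 deep libraries, quasi-likelihood tests and Benjamini-Hochberg adjustment. A call needed an adjusted p of 0.05 or less and a log2 fold change of 1 or more in size. Adjusted p values without a named tool are from this test. The term was used since the 2 deep libraries stand apart, and the study adjusted for a batch whose libraries the sources used here do not name. Each replicate is 1 mouse. The deep libraries give the smallest counting error (3 counts are 0.0695 and 0.0684 CPM there, and 0.931 to 1.56 CPM elsewhere). Exact permutation tests of single values were two-sided. Ratios between the deep libraries used CPM.

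Values per library are given for mRuby3_luciferase, members called, 12 fixed members and the 2 members of each comparison with the largest absolute log2 fold change. Of the other lists, called genes and 6 fixed genes are named. Cdt1, Bub1b and genes named with fold changes alone were chosen once their values had been seen. Exon overlaps came from the GRCm38 annotation M21 and promoters from RefSeq (GRCm38.p6). Same-numbered replicates deviated together only within P815-IFNG, where crossed numbers did so as well, so the numbers were not taken as pairs.

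The alternatives were DESeq2 1.42.0, its size factors, filterByExpr, no filter, mitochondrial genes kept, no term, the 10 libraries alone, ComBat-seq (sva 3.50.0) with the deep libraries as a batch, a replicate block, only the libraries compared, no minimum fold change, scaling to mRuby3_luciferase, and each library left out. Lists without overlapping members were added after seeing the data. Figures were drawn with Python 3.11.15 and matplotlib 3.10.9. Scripts were tested on simulated data first.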

Additional observations from a re-analysis of the deposited data

How the results depend on the processing

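Between light and dark, the members called in P815-IFNG tumors were 0 and became 1 (Ube2c) with no filter or with scaling to mRuby3_luciferase, and from 0 to 1 with each library left out in turn. The scaled fit called 85 of all 18804 genes there. In P815-M tumors the 1 called member became 2 with no filter (Ube2c and Rrm2), 3 with no minimum fold change and 0 with no term for the deep libraries or with scaling to mRuby3_luciferase, and ranged from 0 to 2 with 1 library left out. It was 0 without the second or the third P815-M light replicate. It was 2, with Bub1b added, without the first P815-IFNG dark replicate, where 231 of 18673 genes were called. Between the lines in light 1 member, Ube2c, was called with no filter or with only the libraries compared. Of all genes, 245 of 22638 and 140 of 17579 were called there, against 82 of 18804 in the main fit. In dark 1 was called with DESeq2 (Cenpe) or no filter (Ube2c), and from 0 to 1 with a library left out (Cenpe, without the second P815-IFNG light replicate). Of all genes, 408 of 18804, 640 of 22638 and 441 of 18740 were called in these 3 fits, against 290 of 18804 in the main fit. With the replicate block, 1 member (Cenpe) was called between the lines in dark, where 367 of 18804 genes were. The calls of members were the same in the other comparisons. The block moved the genes called over all genes from 2 to 62 in P815-IFNG light against dark. Over all pairs of same-numbered replicates the correlations ran from -0.25 to 0.91, and the pairs of different number 1 and 2 in P815-IFNG were as high (0.69 and 0.65) as the same-numbered ones (0.70 and 0.69).

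Median log2 fold changes scaled to mRuby3_luciferase were -0.65 (S phase) and -0.70 (mitosis) in P815-IFNG and 0.11 and 0.18 in P815-M tumors, where the main values were -0.38, -0.45, -0.57 and -0.49. That scaling reversed, in P815-M, Ccne1 (0.19), Mki67 (0.29), Top2a (0.14), Ccnb1 (0.17), Cdk1 (0.083), Aurkb (0.27), Foxm1 (0.45), Pcna (0.20), E2f1 (0.22), Cdkn1b (0.14), Ccnd1 (0.59), Ccnd2 (0.38), Ccnd3 (0.62) and Myc (0.70), and a negative log2 fold change of mRuby3_luciferase within P815-M makes this shift by construction. With no term the medians between lines were 0.69 and 0.80 in light and 0.40 and 0.58 in dark, Cenpe in dark was 0.77, and mRuby3_luciferase in P815-IFNG light against dark was -0.036. Myc in P815-M was 0.0028 with filterByExpr and 0.029 with the replicate block, and Ccnd3 in P815-IFNG was 0.053 in the 10 libraries alone; the cause was not tested.

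With 1 library left out, medians ranged, for S phase and mitosis in turn, from -0.58 to -0.22 and -0.62 to -0.24 in P815-IFNG light against dark, from -0.70 to -0.53 and -0.60 to -0.36 in P815-M, from -0.17 to 0.25 and -0.49 to -0.02 between lines in light, from -0.23 to -0.11 and -0.30 to -0.13 in dark, and from 0.013 to 0.38 and -0.16 to 0.17 for the difference of the light effects. Single genes that changed sign ranged from -0.17 to 0.023 (Mki67), -0.20 to 0.46 (mRuby3_luciferase), -0.35 to 0.10 (Cdkn1a) and -0.18 to 0.052 (Ccnd3) in P815-IFNG, from -2.20 to 1.32 (Ube2c), -0.12 to 0.35 (Cdkn1a), -0.15 to 0.029 (Ccnd3) and -0.23 to 0.22 (Myc) in P815-M, and for Ube2c from -2.38 to 1.31 between lines in dark and from -3.24 to 0.27 for the difference. Genes called over all genes in P815-IFNG light against dark were 2, and 151 with ComBat-seq, 58 with DESeq2 and 211 with no filter. In P815-M they were 194, 245, 293 and 429 in turn, and 0 with no term. Depth limits the scaling to mRuby3_luciferase, which had 85 to 285 counts in the 10 libraries.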
